A study of Mus musculus with 96 samples.

Results

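Lateral olivocochlear neurons (LOCs) of the mouse lateral superior olive (LSO) were described from 28 libraries of single neurons, out of 96 libraries in the series. The members were the neurons labelled LOC_Delayed, that is, neurons of delayed firing. This label is carried by 30 neurons, and cell_78 and cell_85 were left out because neither cluster mean of the study holds them. The choice of LOCs thus rests on the firing pattern and, for these 2 neurons, on the study's own clustering of transcripts. Beside the LOCs stand 52 principal neurons of the LSO (pLSOs), of which 41 were labelled Onset and 11 Sustained. Of 56 labelled pLSOs 4 were left out, and of 10 labelled negative controls 2. Their label and cluster membership differed or, for cell_39, the study's table holds other values under that name. The remaining 8 negative controls serve as background. There the pipette tip was only brought to the surface of the slice, so they show RNA that was picked up outside the harvested cell. All neurons came from C57BL/6J mice of both sexes in the second postnatal week, around hearing onset, and the methods name no transgene or treatment. Each neuron was first recorded in an acute brainstem slice at near-physiological temperature, and its cytoplasm was then drawn into the pipette and amplified after a modified Smart-seq2 protocol. The labels name no animal, so each class counts as 1 sample: no test was made between neurons, and the intervals given with shares cover counting error only.

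LOCs are efferent neurons. Their axons run from the brainstem into the cochlea, where they end on the dendrites of the auditory nerve fibres beneath the inner hair cells. They are known for releasing several transmitters at once, acetylcholine, GABA, dopamine and peptides such as calcitonin gene-related peptide (CGRP) and urocortin, and they arise in the hindbrain beside the facial motor neurons. The pLSOs, in contrast, compare sound level between the ears and send their axons upward in the auditory pathway.

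Each library was listed in TPM, a transcript level scaled for gene length and sequencing depth, over 38887 genes and summed to between 999773 and 1000026 TPM, with no read counts, so the sequencing depth behind a value is unknown. A gene counted as detected at 1 TPM or more. The number of genes detected per LOC was 1175 at the lowest, 2394 at the median and 4408 at the highest. The pLSOs had a similar range from 1333 over 2560.5 to 6276 genes, and the negative controls had 285, 821 and 1271 genes. The 10 highest genes took 15.4% to 35.8% of the TPM of a LOC and 47.3% to 65.7% of that of a negative control. No pair among the libraries was identical, and log2(TPM + 1) correlated between 2 LOCs with Pearson's r of 0.24 at the lowest, 0.38 at the median and 0.59 at the highest. The scale of the values changes along the table: 1 TPM in the row of Col4a3 was worth about 7.78 times as many reads as in the row of Calca, 1 TPM in the row of Ucn 1.90 times as many and in the row of Gata3 0.0361 times as many. Levels are therefore compared between neurons for the same gene, and genes are ranked against each other only after the values were rescaled by each gene's own length.

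The label was checked against 5 markers of the class: Calca, which encodes CGRP; Ucn, the precursor of urocortin; Isl1, a transcription factor of motor and efferent neurons; Col4a3, a chain of basement-membrane collagen; and Anxa2, a calcium-dependent membrane-binding protein. These markers were taken from the study, which chose them on the same libraries, so they are no independent evidence. All 5 were detected in 16 LOCs, 4 in 7 LOCs, 3 in 2 LOCs and 2 in 1 LOC. None of the 52 pLSOs held more than 2 of them. The choice of libraries fixed this in part, because neurons labelled pLSO but in the LOC cluster mean were left out. Such a neuron was cell_54, labelled Sustained, which held 4 of the 5. The 2 remaining LOCs, cell_57 and cell_76, were at 0 TPM for all 5 markers although 3264 and 3111 genes were detected in them, more than the median LOC. Both carry the LOC label and both contribute to the LOC cluster mean of the study. Spp1, the leading pLSO marker, was also at 0 TPM in both, and of 6 pLSO markers cell_57 held 2 and cell_76 held 1. These 2 libraries go against their label by the markers, and values are given with and without them where they matter. The LOC with the fewest genes, cell_64, had the highest Calca value of 4484 TPM and the highest Ucn value of 254 TPM but was at 0 TPM for Isl1, Col4a3 and Anxa2.

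Calca (chromosome 7, 114631478 to 114636357, minus strand, GRCm38) was the most regular marker, with 1 TPM or more in 26 of 28 LOCs (92.9%, exact Clopper-Pearson 95% interval 76.5% to 99.1%). Its lowest, median and highest values were 0, 925.5 and 4484 TPM, and without cell_57 and cell_76 it was in 26 of 26 LOCs, at 170 TPM or more. On values rescaled to length, its mean over LOCs ranked 3 among all genes. It was also listed in 15 of 52 pLSOs (28.8%, 17.1% to 43.1%), at 58 TPM at most, and in 5 of 8 negative controls, at up to 315 TPM. Thus every LOC with Calca lay above each of the 52 pLSOs, whereas the highest negative control reached into the LOC range. The left-out cell_54, labelled Sustained, had 1887 TPM of Calca. The share of pLSOs with Calca was below that of the negative controls, so it is not read as expression in pLSOs, and the source of these transcripts was not tested.

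Ucn (chromosome 5, 31138063 to 31138829, minus strand) was detected in 23 of 28 LOCs (82.1%, 63.1% to 93.9%), with a median of 26 TPM and a highest value of 254 TPM. It was in 0 of 52 pLSOs, which allows a share of up to 5.77%, and in 2 negative controls, at 6 TPM at most. This 0 depends in part on the choice of libraries, because the left-out cell_54, labelled Sustained, held Ucn at 28 TPM. Isl1 (chromosome 13, 116298281 to 116309689, minus strand) was detected in 22 LOCs (78.6%, 59.0% to 91.7%), with a median of 14 TPM and a highest value of 191 TPM. It was at 0 in all pLSOs and in all 8 negative controls, the latter allowing a share of up to 37.5%. Of the 5 markers, Isl1 alone was free of background in the negative controls. At a threshold of 10 TPM, however, the share of LOCs with Isl1 was 53.6%.

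Col4a3 (chromosome 1, 82586921 to 82722059, plus strand) was in 23 LOCs, with a median of 43.5 TPM and a highest value of 158 TPM, in 0 pLSOs and in 4 negative controls at up to 5 TPM. In the left-out cell_54, labelled Sustained, Col4a3 was at 120 TPM. Anxa2 (chromosome 9, 69453620 to 69491795, plus strand) was in 22 LOCs, with a median of 119.5 TPM and a highest value of 587 TPM, in 2 pLSOs at up to 53 TPM and in 1 negative control at 1 TPM. For both genes, the LOCs that held the transcript lay above every negative control or equalled the highest one. The negative control NC9 accounted for the highest background of Calca, Ucn and Col4a3.

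**Figure D1:**
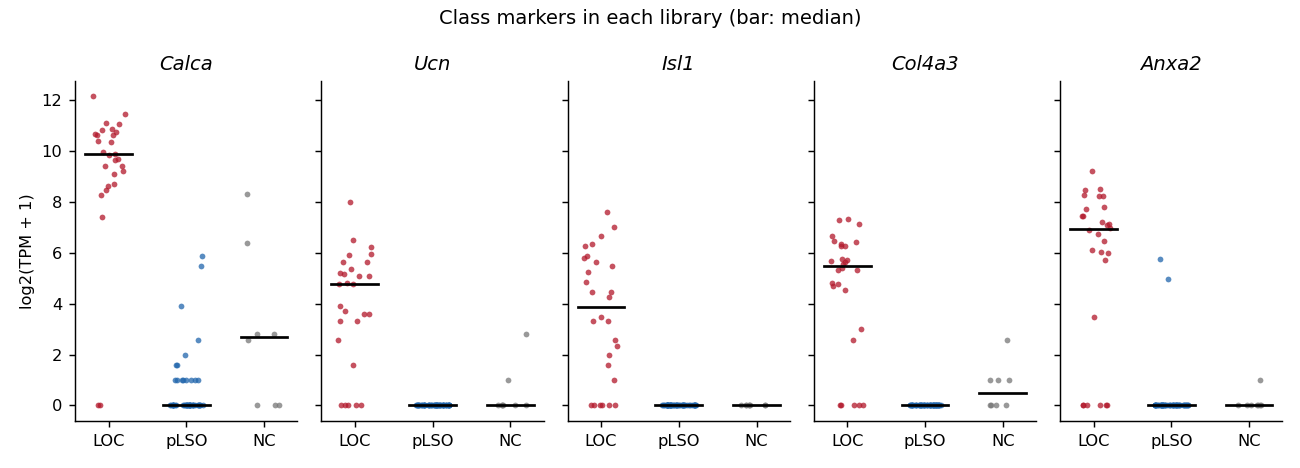
The 5 class markers in each library, as log2(TPM + 1), for 28 LOCs, 52 pLSOs and 8 negative controls (NC); each point is 1 library and the bar is the median. Calca is above 0 in 26 LOCs and Isl1 is at 0 in all pLSOs and negative controls, and for each marker a small group of LOCs lies at 0.

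Peptide and peptide-hormone precursors were described from a list of 21 genes, drawn up with earlier results of these data known. Of these, 15 were detected in at least 1 LOC and 7 in at least 14 LOCs, namely Calca, Calcb, Ucn, Uts2b, Nxph1, Igf1 and Resp18. Of all genes in the table, 31.2% were detected in at least 1 LOC and 3.35% in at least 14. Calcb, which encodes the second form of CGRP and lies beside Calca (chromosome 7, 114718643 to 114723365, plus strand), was in 15 LOCs, with 0, 9 and 260 TPM at the lowest, median and highest LOC, and in 1 pLSO. The LOCs with Calcb had a median of 109 TPM. Since Calca and Calcb are close in sequence, reads may have been split between them, and the Calcb values are uncertain for that reason. Uts2b, which encodes urotensin-related peptide, (chromosome 16, 27353322 to 27370239, minus strand) was in 16 LOCs, with a median of 9 TPM over all LOCs and a highest value of 78 TPM, and in no pLSO. Both genes were present in some LOCs and at 0 in others.

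Igf1, encoding an insulin-like growth factor, was in 19 LOCs at up to 5024 TPM and in 16 pLSOs; its mean was 686 TPM in LOCs and 76.8 TPM in pLSOs. Nxph1, a secreted ligand of neurexins, was in 19 LOCs and 2 pLSOs, with a highest value of 124 TPM, and was also present in cell_57 at 23 TPM and in cell_76 at 20 TPM. Resp18, a protein of secretory granules, was in 24 LOCs and 29 pLSOs, with mean values of 81.1 and 14.5 TPM. Vgf, a further granule protein precursor, was in 13 LOCs and 5 pLSOs at low values of up to 28 TPM in LOCs. The other classical peptides were rare: Npy and Pdyn were in 4 LOCs each, Penk in 2, Cartpt in 1, and Tac1 and Adcyap1 in none. Cck was the only listed peptide whose share in LOCs was at least 40 percentage points below that in pLSOs, with 0 of 28 LOCs and 28 of 52 pLSOs. Of all genes in at least 5% of neurons, 0.533% lay as far below.

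The promoter windows of Calca and Ucn are shown because the transcripts of these peptides were the pair of class markers with the highest correlation of levels. The sequences are those of RefSeq on GRCm38.p6, from 250 bases before to 50 bases after the start annotated by RefSeq and in the direction of the gene. The Ucn window lies wholly upstream of the gene position given above, which came from Gencode, so the Ucn start differs between these annotations. Capitals mark TGACG, the core that the cyclic-AMP response factor CREB is known to bind, on either strand.
Calca, chr7:114636308-114636607, minus strand: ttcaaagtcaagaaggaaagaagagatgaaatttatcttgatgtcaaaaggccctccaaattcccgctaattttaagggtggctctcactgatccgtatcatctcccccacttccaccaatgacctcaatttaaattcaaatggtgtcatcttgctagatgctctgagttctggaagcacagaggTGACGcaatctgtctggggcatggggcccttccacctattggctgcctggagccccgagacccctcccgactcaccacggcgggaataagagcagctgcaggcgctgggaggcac
Ucn, chr5:31138846-31139145, minus strand: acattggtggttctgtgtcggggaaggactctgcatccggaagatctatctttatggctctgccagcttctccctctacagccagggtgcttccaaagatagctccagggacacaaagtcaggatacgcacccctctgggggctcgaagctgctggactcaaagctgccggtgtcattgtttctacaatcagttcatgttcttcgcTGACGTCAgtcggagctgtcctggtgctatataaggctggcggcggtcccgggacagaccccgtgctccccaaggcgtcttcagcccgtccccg
The Calca window held 1 match, beginning at base −65 from the start, and the Ucn window held 2 overlapping matches on opposite strands, beginning at −44 and −41. Of all 32851 windows of this length, 6837 (20.8%) held TGACG, so a match is frequent and is given as a description only. A window was at hand for 4 of the 5 class markers, and of the other two the Isl1 window held 2 matches and the Anxa2 window 0. The window of Uts2b held 0 as well.

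Over the 28 LOCs, Calca and Ucn were detected together in 23, Calca alone in 3, Ucn alone in none and neither in 2. The levels correlated on the log2(TPM + 1) scale with r = 0.68 and Spearman's rho = 0.67, and r was again 0.68 without cell_57 and cell_76, which were also the 2 LOCs farthest from the median of Calca. Calca and Calcb were together in 15 LOCs, with Calca alone in 11 and Calcb alone in none (r = 0.43, rho = 0.56 and r = 0.47 without the 2). Thus each LOC with Ucn or Calcb also held Calca. Calca was missing only in cell_57 and cell_76, which held none of Calcb, Ucn and Uts2b. This nesting therefore cannot be told from the near-full share of Calca. Uts2b and Calcb were together in 10 LOCs, Calcb alone in 5, Uts2b alone in 6 and neither in 7 (r = 0.15). Uts2b and Vgf were together in 5 LOCs only, with 11 and 8 holding Uts2b or Vgf alone (r = −0.50). These coefficients describe 28 neurons whose libraries differ in the number of genes detected.

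Of the 4 peptides Calca, Calcb, Ucn and Uts2b, all 4 were detected in 10 LOCs, 3 in 10, 2 in 4, 1 in 2 and 0 in 2, the last being cell_57 and cell_76. A pLSO held at most 1 of them, and the negative controls held between 0 and 4 with a median of 1. The left-out cell_54, labelled Sustained, held at least Calca and Ucn. Over all 21 peptides, a LOC held 3, 6.5 and 10 at the lowest, median and highest, a pLSO 0, 2 and 8, and a negative control 0, 2 and 7. A larger list of 45 transmitter, peptide and marker genes gave 7, 14.5 and 20 per LOC, 2, 5 and 17 per pLSO and 0, 5 and 11 per negative control. In LOCs this number went with the number of genes detected in the library (r = 0.48, rho = 0.55, r = 0.39 without the 2 LOCs farthest from the median number of genes, and r = 0.78 without cell_57 and cell_76). The part of capture in the co-detection was not tested.

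**Figure D2:**
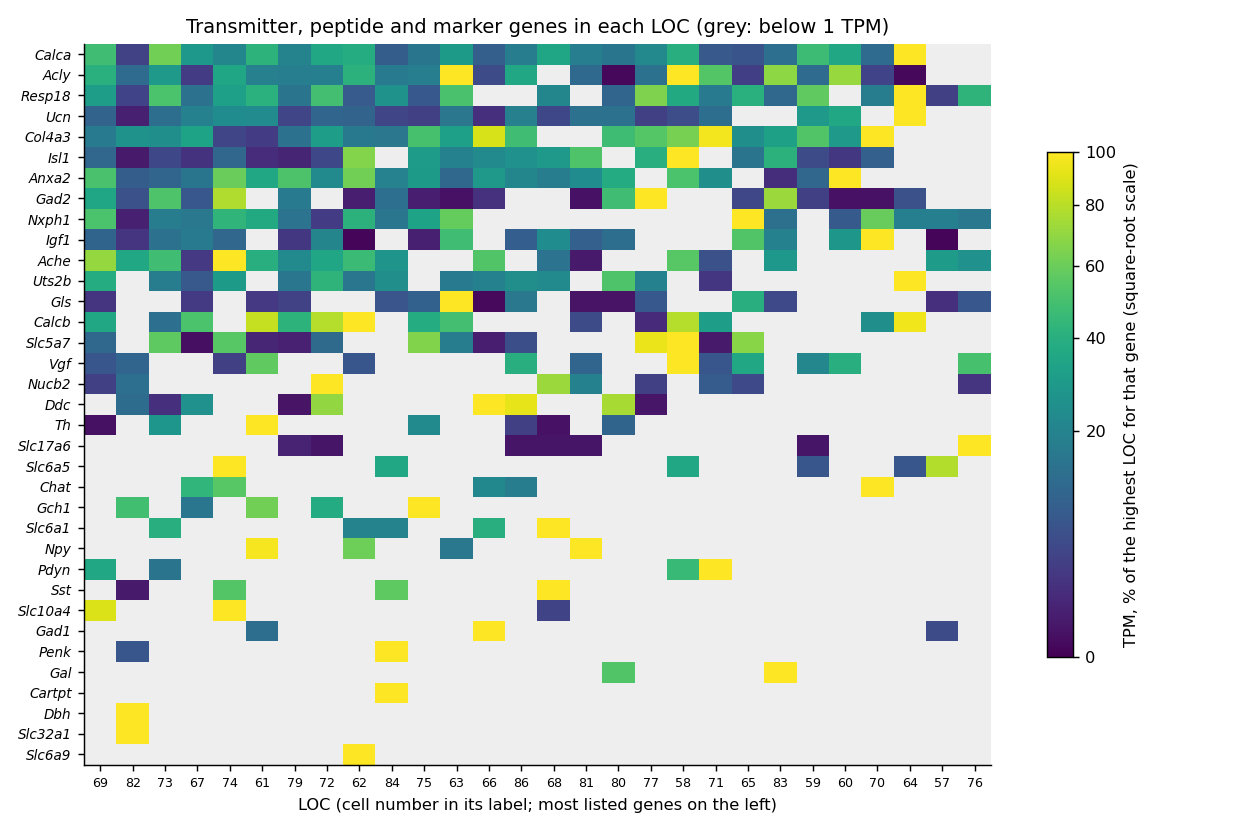
Listed transmitter, peptide and marker genes that were detected in at least 1 LOC (vertical) in each of 28 LOCs (horizontal, by cell number, those with most listed genes on the left). Colour gives the TPM as a percentage of the highest LOC for that gene on a square-root scale and grey is below 1 TPM; Calca is grey in cell_57 and cell_76 only.

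The machinery that makes and packs peptides was detected in LOCs about as often as in pLSOs. Of 14 granins, processing enzymes and dense-core vesicle proteins, all were in at least 1 LOC and 9 were in at least 14 LOCs. Of all genes in the table, these shares were 31.2% and 3.35%. The median share of the list was 53.6% in LOCs, 55.8% in pLSOs and 12.5% in negative controls. Pam, which amidates the end of peptides such as CGRP, was detected in 26 of 28 LOCs and in 1 negative control, with a median of 125 TPM and a highest value of 1626 TPM. It was in 34 of 52 pLSOs, and its mean was 277 TPM over LOCs and 45.7 TPM over pLSOs. The 2 LOCs without Pam were again cell_57 and cell_76, and all 26 LOCs with Calca held Pam. Among the 26, the levels of Pam and Calca were unrelated (r = 0.03 without cell_57 and cell_76, and r = 0.68 with them).

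Cadps2, which primes dense-core vesicles for release, was in 16 LOCs and 2 pLSOs, with a highest value of 2459 TPM in LOCs. Its relative Cadps was in 21 LOCs and 20 pLSOs. The granin Chgb was in 16 LOCs and 41 pLSOs, and Chga was in 14 LOCs and 41 pLSOs. The prohormone convertase inhibitor Pcsk1n was in 24 LOCs and carboxypeptidase E (Cpe) in 22, whereas the convertases themselves were less often listed, Pcsk2 in 10 LOCs and Pcsk1 in 4. Of the 14 genes, Cadps2 alone had a share in LOCs at least 40 percentage points above that in pLSOs.

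Cholinergic transcripts were found in part of the LOCs. Slc5a7, the choline transporter that refills cholinergic terminals, was in 15 LOCs at up to 594 TPM and in 3 pLSOs. Chat, which synthesises acetylcholine, was in 5 LOCs at 136 to 770 TPM and in no pLSO or negative control. Both were together in 4 LOCs, Chat alone in 1, Slc5a7 alone in 11 and neither in 12. Acly, which supplies acetyl-CoA in the cytoplasm, was in 25 LOCs with a mean of 989 TPM and in 25 pLSOs with a mean of 115 TPM, and it was at 0 in cell_57 and cell_76. Ache, the esterase that breaks acetylcholine down, was in 18 LOCs and 29 pLSOs, with means of 377 and 87.8 TPM.

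Gad2, a GABA-synthesising enzyme, was in 20 LOCs and 13 pLSOs, with mean values of 70.1 and 3.42 TPM. It was also in 3 negative controls, at 10 to 28 TPM. Gad1, its relative, was in 3 LOCs and 9 pLSOs, and the vesicular transporter Slc32a1 was in 1 LOC. The glycine transporter Slc6a5 was in 6 LOCs and 7 pLSOs at 14 TPM or less in LOCs. Thus GABA-related transcripts in LOCs were mainly those of Gad2. The vesicular glutamate transporter Slc17a6, which loads glutamate into vesicles, was in 7 LOCs and 36 pLSOs, and of these 7 only cell_76 was high, with 307 TPM; without it the LOC mean was 0.296 TPM instead of 11.3 TPM.

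Catecholamine genes were detected in part of the LOCs. Th, the first enzyme of dopamine synthesis, was in 7 LOCs at 80 to 40038 TPM and in 1 pLSO, in a row where 1 TPM stands for very few reads. Ddc, the next enzyme, was in 9 LOCs at 5 to 1827 TPM and in 3 pLSOs, and Gch1, which makes the cofactor of Th, was in 5 LOCs and no pLSO. Th and Ddc were together in 3 LOCs, with 4 and 6 holding Th or Ddc alone. The vesicular monoamine transporter Slc18a2 and the dopamine transporter Slc6a3 were in no LOC, which allows a share of up to 10.7%. Slc18a2 was present in the pLSOs cell_48 (207 TPM), cell_9 (134), cell_10 (129), cell_31 (108), cell_11 (35), cell_44 (13) and cell_45 (4).

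Chat or Slc5a7 was in 16 LOCs, Gad1 or Gad2 in 22 and Th or Ddc in 13; in pLSOs these numbers were 3, 19 and 4 of 52 and in negative controls 0, 3 and 0 of 8. All 3 sets were represented in 8 LOCs and none of them in 1 LOC. Cholinergic and GABA-related transcripts were together in 12 LOCs, cholinergic ones alone in 4, GABA-related ones alone in 10 and neither in 2. Cholinergic and catecholamine transcripts were together in 10 LOCs, with 6 and 3 holding either set alone and 9 neither. By detection at 1 TPM, the sets thus overlapped within neurons and did not divide the LOCs into separate groups. Gad2 was at or below the 28 TPM of NC9 in cell_60, cell_63, cell_70 and cell_81, each at 1 TPM. The same held for cell_62 and cell_75 (3 TPM each), cell_66 (9), cell_59 (16), cell_65 (20), and cell_64 and cell_82 (27 each). The counts with Gad1 or Gad2, and the overlaps that rest on them, may therefore include background.

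The transcription factors of the lineage were described from a list of 11. Gata3, which is needed for the development of efferent neurons of the inner ear, was in 22 LOCs and 7 pLSOs, with mean values of 780 and 1.81 TPM, a highest LOC of 4463 TPM and 903 TPM in cell_57. Of these 22 LOCs, 18 also held Isl1, and 4 LOCs held Isl1 without Gata3. Nfia and Nfib, factors of the nuclear factor I family, were in 23 and 18 LOCs and in 15 and 17 pLSOs. Gata2 and Nkx6-1 were in 5 LOCs each and Tbx20 in 4, all in 0 pLSOs. Hence 3 of the 11 had a share in LOCs at least 40 points above that in pLSOs and none lay as far below. Of the 10319 genes in at least 5% of neurons, 0.417% lay as far above and 0.533% as far below. The list was drawn up with earlier results of these data known.

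Col4a3 and Col4a4 lie head to head on chromosome 1, with 71 bases between the annotated ends. Col4a4 (82448423 to 82586849, minus strand) was in 17 LOCs at up to 27 TPM and in no pLSO and no negative control. Both chains were detected in 16 LOCs, Col4a3 alone in 7, Col4a4 alone in 1 and neither in 4. The levels were weakly related (r = 0.32, rho = 0.12, r = 0.21 without cell_57 and cell_76). The neighbouring pair Col4a1 and Col4a2 differed from it, with 12 and 13 LOCs, 26 and 15 pLSOs and both chains in 7 LOCs and 11 pLSOs, and Col4a5 and Col4a6 were in no LOC. The window around the start of Col4a4 is printed because it holds the whole stretch between both genes, marked by capitals, and is read here in the direction of Col4a4.
Col4a4, chr1:82586800-82587099, minus strand: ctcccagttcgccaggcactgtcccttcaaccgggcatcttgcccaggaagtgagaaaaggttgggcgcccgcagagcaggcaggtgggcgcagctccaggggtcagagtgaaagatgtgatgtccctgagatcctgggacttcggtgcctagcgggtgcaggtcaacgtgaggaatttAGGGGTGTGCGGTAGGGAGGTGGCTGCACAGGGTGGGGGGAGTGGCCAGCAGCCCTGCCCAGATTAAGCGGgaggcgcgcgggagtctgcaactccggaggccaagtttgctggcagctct
This window held no TGACG on either strand.

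The genes that nearly all LOCs share were taken as those detected in at least 26 of 28 LOCs. There were 110 of them, 0.283% of all genes, and 36 were in all 28 LOCs. Most were frequent outside the class too: 82 of the 110 were also in at least 47 of 52 pLSOs, and 75 were in at least 4 of 8 negative controls. Without cell_57 and cell_76, 73 genes were in at least 25 of 26 LOCs. The LOC mean exceeded every negative control for 33 of the 110. Calca had the fewest pLSOs among them, 15 of 52.

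Only 12 genes (0.0309% of all) were in at least 26 LOCs and in at most 1 negative control. Rbm39, a splicing factor, was in all 28 LOCs with 2, 60.5 and 298 TPM at the lowest, median and highest. Ribosomal and mitochondrial members were Rpl19, with a median of 846 TPM, and Uqcrq of respiratory complex III, with 21.5 TPM. Selenow, a selenoprotein, Gabarapl2 of the autophagy machinery, and Ptma, a nuclear protein, had medians of 24.5, 41.5 and 86 TPM. The cap methyltransferase Rnmt, the histone demethylase Kdm6b and the ubiquitin-conjugating inhibitor of apoptosis Birc6 had medians of 777, 177 and 191.5 TPM. These 9 genes were in 37 to 50 of the 52 pLSOs as well.

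The other 3 of the 12 differed more from the pLSOs. Spock3, a proteoglycan of the extracellular matrix, was in 27 LOCs and 29 pLSOs, with mean values of 57.8 and 13.9 TPM. Nrxn3, a presynaptic adhesion molecule, was in 26 LOCs and 33 pLSOs, with means of 17.3 and 5.83 TPM. Pam, described above, was the third. The number of these 12 genes is sensitive to the background used: with all 10 labelled negative controls 3 genes passed, and without cell_57 and cell_76 6 genes passed.

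**Figure D3:**
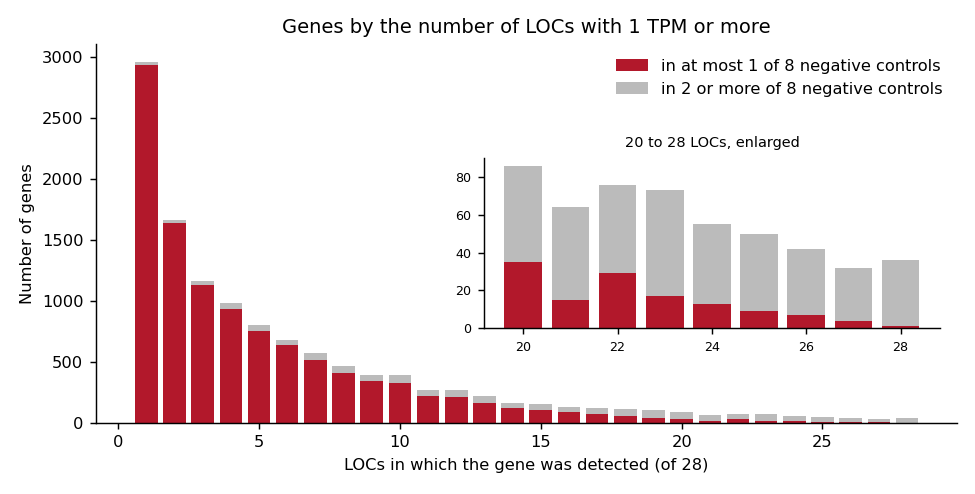
Number of genes (vertical) by the number of LOCs in which they were detected at 1 TPM or more (horizontal, of 28), divided into genes in at most 1 of 8 negative controls (red) and in more of them (grey); the inset enlarges 20 to 28 LOCs. Most genes are in few LOCs, with 2960 in 1 LOC, and genes in nearly all LOCs are mostly shared with negative controls.

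Most transcripts were in a minority of LOCs. Of 12133 genes detected in at least 1 LOC, 2960 were in 1 LOC, 8253 in 1 to 6 LOCs, 3516 in 7 to 21 LOCs and 364 in 22 to 28 LOCs. The median gene was in 14.3% of LOCs, and 13.5% of pLSOs. Genes in 7 to 21 LOCs and in at most 1 negative control were counted as variable between LOCs, and there were 2721 of them (7% of all genes). The SD of log2(rescaled value + 1) over the 28 LOCs had a median of 2.99 over these genes. Of the 2721, 1925 were also in 25% to 75% of the pLSOs, and 11 were in no pLSO.

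The 20 named genes of the largest SD had values between 5.66 and 4.80, and 12 gene models without a name ranked among them. Many of them are short housekeeping genes. Proteins of mitochondria and metabolism were encoded by Ndufb4c, Fabp3, Acot13, Bnip3, Cisd3 and Mpc1-ps, in 9 to 16 LOCs. Acot13, an acyl-CoA thioesterase, was in 14 LOCs, with a median of 1501.5 TPM among those 14, and in 22 pLSOs. Proteasome, ribosome, lysosome and motor proteins were represented by Psma5 in 18 LOCs, Rps15 in 17, Lamtor5 in 11 and Dynlt1b in 12. Rpph1, the RNA of RNase P, was in 19 LOCs and 10 pLSOs at 24 TPM or less. Mpc1-ps is a pseudogene, and Ndufb4c, Dynlt1b and Rtl8c belong to families of near-identical copies, so reads may have been split and these values are uncertain.

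Among the same 20, Uts2b and Calcb stood with 16 and 0, and with 15 and 1, LOCs and pLSOs. Bex1, a small neuronal adaptor protein, was in 16 LOCs and 7 pLSOs, with means of 10.3 and 0.654 TPM. B2m, the light chain of MHC class I, was conversely in 8 LOCs and 37 pLSOs. The prion protein gene Prnp was in 17 LOCs and 26 pLSOs, Tmem59l in 15 and 25, Rtl8c in 13 and 21, Rnf7 in 13 and 24, and Gon7 in 10 and 21. The 21st gene had an SD of 4.79, so the border of the list is narrow. The ranking depends on the scale: by the values as deposited 0 of the 20 remained among the first 20.

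Beside the pLSOs, the share of LOCs with a gene was at least 40 percentage points higher for 43 of 10319 genes (0.417%) and at least 40 points lower for 55 (0.533%). The 10319 are the genes detected in at least 5% of the 80 neurons. In at least 14 LOCs and in no pLSO were 5 genes, Ucn, Col4a3, Isl1, Uts2b and Col4a4. Of these, Ucn and Col4a3 were present in the left-out cell_54, labelled Sustained, at 28 and 120 TPM. Besides the markers and peptides already given, the genes with the largest excess in LOCs were Fxyd6, a regulator of the sodium pump, in 19 LOCs and 1 pLSO; Atp8a1, a lipid flippase, in 18 and 2; Scn3a, an embryonic type of voltage-gated sodium channel, in 23 and 13; and Rasgrf1, a Ras activator, in 19 and 6. The smallest difference among the 12 named was 56.3 points and the next gene had 54.9 points. The choice of the 5 markers and of the left-out libraries came from the study, so the shares describe these libraries and do not test the class.

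Not detected in any LOC, which allows a share of up to 10.7%, but present in at least 26 pLSOs were 3 genes, Rorb (38 pLSOs), a nuclear receptor, Bhlhe40 (31 pLSOs), a transcription factor, and Cck (28 pLSOs). Spp1, which encodes osteopontin, was in 1 LOC at 1 TPM and in 50 pLSOs with a mean of 306 TPM. The potassium channel gene Kcnh7 was in 1 LOC and 40 pLSOs, and this LOC was cell_57. Plk5, a kinase-like protein, was in 1 and 39, Lrfn5, a synaptic adhesion molecule, in 2 and 40, and Ptprk, a receptor phosphatase, in 1 and 31, the single LOC being cell_76. Tgfb2 was in 2 and 32, Ryr3, an intracellular calcium channel, in 4 and 35, Parp8 in 8 and 42, and Syt2, the calcium sensor of fast release, in 5 and 36. Of the 5 LOCs with Syt2, cell_57 had 197 TPM and cell_76 had 32 TPM, and the mean of LOCs without cell_57 was 1.44 TPM.

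**Figure D4:**
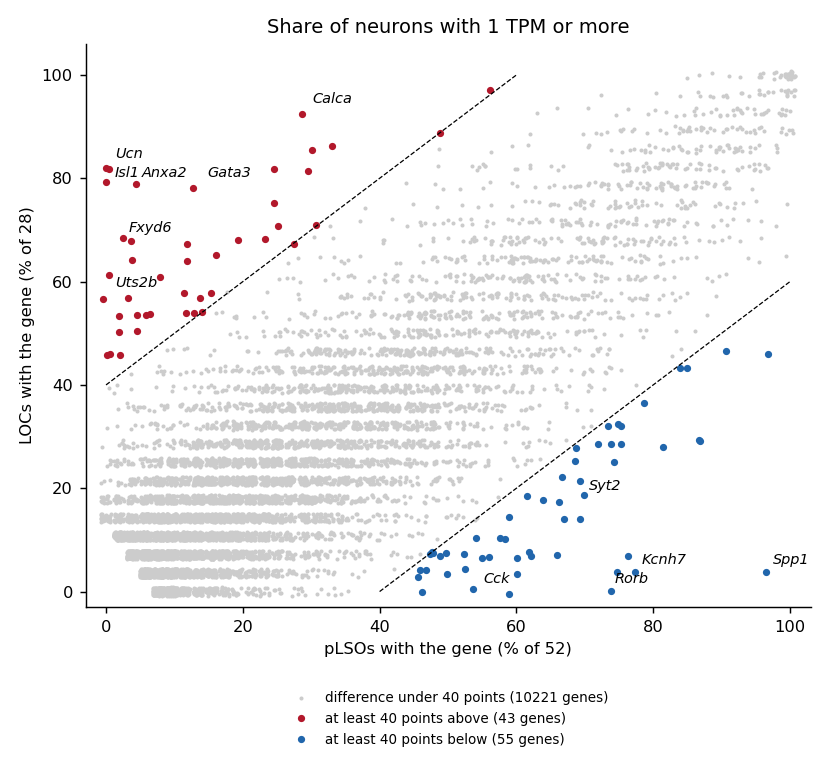
Share of the 28 LOCs (vertical) and of the 52 pLSOs (horizontal) in which each of 10319 genes was detected; each point is a gene, moved by a small random amount to part overlapping points. Dashed lines mark a difference of 40 percentage points, with 43 genes above (red, Ucn and Isl1 at the left) and 55 below (blue, Spp1 at the lower right).

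Of 11 genes for A-type potassium currents and the subunits that assemble with them, 0 were in at least 14 LOCs, a number near the 3.35% of all genes. Kcnd2, a pore subunit of the A-type current, was in 7 LOCs and 1 pLSO, and Kcnc4 was in 10 LOCs and 2 pLSOs. Of the auxiliary subunits, Kcnip1 was in 1 LOC and 27 pLSOs, and Dpp6 in 13 LOCs and 27 pLSOs. None of 18 further potassium channel genes and of 4 genes for hyperpolarisation-activated channels reached 14 LOCs either. Kcna1 was in 12 LOCs and 39 pLSOs.

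Of 9 sodium channel genes, Scn1a (21 LOCs and 47 pLSOs), Scn2a (18 and 14) and Scn3a reached 14 LOCs. Of all genes in the table, 3.35% reached 14 LOCs. The pore subunit of R-type calcium channels, Cacna1e, was in 21 LOCs and 13 pLSOs, with means of 1511 and 195.8 TPM, and no other of the 8 calcium channel genes was in 14 LOCs or more. Among glutamate receptors, Gria2 and Gria1 were in 23 and 20 LOCs and in 42 and 22 pLSOs, whereas Gria4, a subunit of fast receptors, was in 8 LOCs and 38 pLSOs. For glycine receptors, Glrb was in 18 LOCs, Glra1, the adult alpha subunit, in 9 LOCs and 30 pLSOs, and Glra2, the early one, in 11 LOCs and 4 pLSOs. Gabrb1, a subunit of GABA-A receptors, was in 8 LOCs and no pLSO. Receptors for acetylcholine were rare, with Chrm2 in 10 LOCs and 1 pLSO and Chrna3 in 7 LOCs and no pLSO.

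The general machinery of neurons was detected broadly. Of 20 genes of transmitter release 14 were in at least 14 LOCs, as were 3.35% of all genes. The median share of this list was 58.9% in LOCs, 67.3% in pLSOs and 25% in negative controls. Snap25 was in 27 LOCs and in 7 of the 8 negative controls, with means of 483 and 1108 TPM. Rab3b, a small GTPase of secretory vesicles, was in 18 LOCs and 6 pLSOs, with means of 2675 and 79.6 TPM, and was the only gene of the list with a share at least 40 points above that in pLSOs, while Syt2 alone lay as far below. Of all genes in at least 5% of neurons, 0.417% lay as far above and 0.533% as far below. Syt1 was in 16 LOCs and 46 pLSOs. Of 10 cytoskeletal genes of axons 9 were in at least 14 LOCs, with the neurofilament genes Nefl and Nefm in all 28. These 2 were also in 5 and 7 of the 8 negative controls, with means of 1096 and 2519 TPM there against 448 and 363 TPM in LOCs, and the median share of the list in negative controls was 50%. The remaining gene, Prph, a filament protein of peripheral and motor neurons, was in 10 LOCs and 3 pLSOs with a highest LOC of 757 TPM. All 23 genes of cytochrome oxidase, ATP synthase and creatine kinase were in at least 14 LOCs and 8 in at least 26, but their median share in negative controls was 50%. Of 11 neuronal markers 9 were in at least 14 LOCs, and their median share was 67.9% in LOCs, 82.7% in pLSOs and 25% in negative controls. The imprinted genes Peg3 and Meg3 were in all 28 LOCs, with medians of 11561 and 6098.5 TPM. Meg3 was in all 8 negative controls too, and Peg3 in 6 of them at up to 20289 TPM.

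Transcripts of other cell types were present. Of 9 oligodendrocyte markers 4 were in at least 14 LOCs, and Mbp, of the myelin sheath, was in all 28 LOCs and in all 8 negative controls. Of all genes in the table, 3.35% were in at least 14 LOCs. The summed TPM of the oligodendrocyte list was 1, 1119 and 26591 at the lowest, median and highest LOC, 0, 289 and 12919 for pLSOs and 389, 6854.5 and 42992 for negative controls. Of 8 astrocyte markers 1 was in at least 14 LOCs, and their sum was 0, 281.5 and 23867 TPM in LOCs and 0, 357 and 2527 TPM in negative controls. None of 9 microglia markers reached 14 LOCs, with sums of 0, 130 and 3169 TPM in LOCs and up to 7692 TPM in negative controls. Of 6 endothelial markers 5 were in no LOC, and their sum was 533 TPM at most. In LOCs the number of genes detected went with the number of oligodendrocyte markers (r = 0.60, rho = 0.46), of microglia markers (r = 0.51, rho = 0.58) and of astrocyte markers (r = 0.52, rho = 0.48), with r between 0.34 and 0.42 without the 2 LOCs farthest from the median number of genes. The part of these transcripts in the genes that vary between LOCs was not tested.

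The electrophysiological features in the labels describe the same 28 neurons, which were selected by their firing, so these values are a description. The input resistance of LOCs was 58.8, 549.2 and 903.9 MΩ at the lowest, median and highest (n = 27), against 16.7, 43.25 and 147.4 MΩ in pLSOs, and 26 of the 27 LOCs lay above every pLSO. The exception was cell_79. The membrane time constant was 6.8, 19.85 and 35.7 ms in LOCs and 0.8, 3.75 and 11.6 ms in pLSOs, with 22 of 28 LOCs above every pLSO. Capacitance overlapped, at 0.012, 0.037 and 0.159 nF in LOCs and 0.035, 0.07 and 0.162 nF in pLSOs. The resting potential overlapped too, with medians of −57.1 mV in 19 LOCs and −64.85 mV in 52 pLSOs. The sag during hyperpolarisation was −0.5, 1 and 2 mV in LOCs and 1.8, 8.3 and 18.5 mV in pLSOs, with 27 of 28 LOCs below every pLSO.

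Rheobase, the smallest current that elicits an action potential, was 0, 0 and 300 pA in LOCs and 150, 450 and 850 pA in pLSOs. In 27 of 28 LOCs it was below every pLSO, and the exception was cell_57. The LOCs without a resting potential were cell_58, cell_62, cell_64, cell_68, cell_70, cell_71, cell_72, cell_73 and cell_74. All of them had a rheobase of 0 pA, so the 19 LOCs with a resting potential are a selected part of the class. The action potential came late and at variable times, with latencies of 3.7, 19.9 and 90.7 ms in LOCs and 1.3, 2.4 and 23.9 ms in pLSOs. It was broad, with a halfwidth of 0.48, 1.12 and 3.37 ms against 0.21, 0.395 and 0.87 ms, and 20 LOCs lay above every pLSO. The threshold was −40.2, −27.25 and −13 mV in LOCs and −59.5, −39.4 and −18.1 mV in pLSOs. The amplitude of the action potential overlapped, with medians of 99.2 and 96.8 mV.

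Spontaneous excitatory postsynaptic currents (sEPSCs) separated the classes in their decay time constant, which was 1.12, 1.915 and 3.42 ms in LOCs and 0.5, 0.74 and 1.04 ms in 49 pLSOs. All 28 LOCs, cell_57 and cell_76 included, lay above every pLSO, which held for no other of the 16 features. The sEPSC amplitude was 20, 42.85 and 92.5 pA in LOCs and 16.4, 25.5 and 47.5 pA in pLSOs, with 12 LOCs above every pLSO. Spontaneous inhibitory currents (sIPSCs) overlapped: their amplitude was 12.6, 18.7 and 29.1 pA in 27 LOCs and 12.4, 28.2 and 55.1 pA in 51 pLSOs, and 25 LOCs lay below the pLSO median. The sIPSC decay time constant was 1.01, 2.29 and 5.02 ms in LOCs and 0.44, 1.51 and 3.6 ms in pLSOs.

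**Figure D5:**
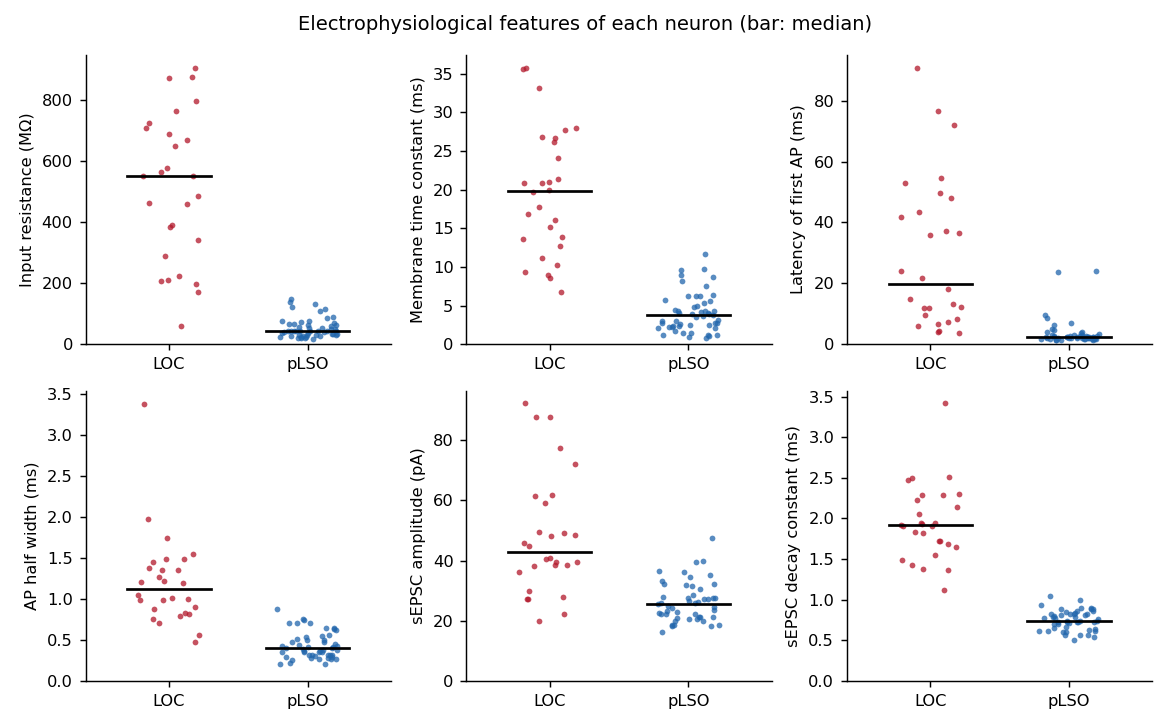
Input resistance, membrane time constant, latency of the first action potential (AP), AP halfwidth, and amplitude and decay time constant of sEPSCs in each LOC and pLSO, on linear axes from 0; each point is 1 neuron and the bar is the median. The sEPSC decay time constants of all 28 LOCs lie above those of all 49 pLSOs with a value, while the other features overlap in at least 1 neuron.

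Within the LOCs, some features went together. The rise time of sEPSCs went with their decay time constant (r = 0.82, rho = 0.76, r = 0.69 without the 2 farthest neurons) and with the rise time of sIPSCs (r = 0.73, rho = 0.51, r = 0.63). Larger action potentials were narrower (r = −0.76, rho = −0.68, r = −0.62). Rheobase and Calca had r = −0.63 and rho = −0.45 over 28 LOCs, and r = −0.50 without cell_57 and cell_76. Without cell_57, at 300 pA, and cell_86, r was −0.13. Here cell_86 was taken by row order among several LOCs tied at 50 pA. The size of this relation thus depended on single neurons. These are descriptions over neurons that may share animals and slices. The number of genes detected in a library had r between −0.45 and 0.27 with the 16 features.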

How the data were processed

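The cytoplasm of single LSO neurons was harvested through the patch pipette after recording, and each neuron or negative control gave 1 library. Per the labels, the authors trimmed reads with Trim Galore 0.4.2, aligned them with STAR to mm10, marked duplicates with Picard 1.115, checked quality with FastQC and counted with featureCounts. The score values used here are TPM as deposited by the authors, who made them from gene length and depth and listed them as whole numbers; no read counts were at hand, so no interval rests on reads. The electrophysiological features are the authors' values per neuron in the labels, as deposited.

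Of 38887 identifiers, 37570 matched Gencode vM21 (GRCm38), the source of gene names and positions; promoter windows came from RefSeq on GRCm38.p6. Of the listed symbols 3 had no match and are not analysed here. The number of columns of no sample was 0. The tools were SciPy 1.17.1, scikit-learn 1.9.0, NumPy 2.4.6, pandas 2.3.3 and matplotlib 3.10.9 under Python 3.11.15, and the scripts were tested on simulated data.

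Groups came from the firing pattern in the labels. Of the 86 neurons and 10 negative controls, 8 libraries were left out (2 LOCs, 4 pLSOs and 2 negative controls), because label and membership in the study's cluster means differed or, for cell_39, the study's table holds other values under that name. Membership was fitted by least squares on 1463 genes of that table; members had weights of at least 0.883 and others of at most 0.120.

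The rows stand in ascending order of identifier and appear to have been divided by gene lengths sorted by size, as the steps between low values of 1676 genes showed. Rescaled values undo this and served only to rank genes.

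Detection means 1 TPM or more. A share carries its exact Clopper-Pearson 95% interval, and 0 of n the limit of 3 over n. Each class is 1 sample, so no test was made. Named are the 5 class markers, up to 15 genes of highest median rescaled value in at least 26 LOCs and at most 1 negative control, the 20 variable genes of largest SD, the 12 genes of largest difference in share in each direction whose mean reached 10 TPM in LOCs or pLSOs, and members of the 28 gene lists; gene models without a name were counted only. Some members of the lists are not reported here. Genes, libraries and pairs singled out beyond this, such as cell_57, cell_76 and the pairs of highest coefficient, were chosen after their values were seen. The members and lists were chosen with earlier results of these data known. Alternatives were thresholds of 2 and 10 TPM, all labelled libraries, other filters and pseudocounts, and values as deposited; leaving out cell_57 and cell_76 and a threshold of equal reads in every row were added after seeing the data.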

Additional observations from a re-analysis of the deposited data

Results flagged for a closer look

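Over the 8 negative controls, 10 measures were examined for a library far from the others, and 6 were flagged. For the marker and peptide genes most controls were at or near 0 TPM. A single value above 0 is then flagged by construction, so no chance rate is given. The library NC9 stood apart for Calca, with 315 TPM where the next control had 83 TPM, for Ucn (6 TPM, next 1), for Col4a3 (5 TPM, next 1), for Calcb (11 TPM, next 0) and for Uts2b (7 TPM, next 0). It thus held all 4 LOC peptides, although it is labelled as a negative control. In NC8, Anxa2 was at 1 TPM and at 0 in the other controls.

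In 3 libraries that the comparisons did not use, Calca exceeded the highest negative control (315 TPM). It was 827 TPM in cell_78 and 692 TPM in cell_85, both labelled LOC, and both libraries held all 5 class markers. In cell_78, Ucn was at 12, Isl1 at 17, Col4a3 at 7 and Anxa2 at 125 TPM, and in cell_85 these values were 16, 60, 77 and 204 TPM. In cell_54, which is labelled Sustained, Calca was at 1887, Ucn at 28, Col4a3 at 120 and Anxa2 at 32 TPM, and Isl1 was at 0.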

How the results depend on the processing

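Of 123 values recomputed under an alternative, 103 stayed within the limits (1 SD over neurons, the interval of a share, or 1.5 times a count) and 20 moved beyond them. Medians of the electrophysiological features were judged against the SD over neurons. Adding or leaving out 2 neurons could hardly move a median past that limit. At 10 TPM, the median number of genes per LOC was 1494, the share of LOCs with Isl1 53.6%, and the genes in at least 26 LOCs numbered 50, of which 4 were in at most 1 negative control; 1545 genes were variable, 12 of the 20 named stayed among the first 20, and 34 genes had a higher and 33 a lower share in LOCs, where 43 and 55 were reported, so the excess of lower over higher ones was lost. With detection at equal reads in every row, added after seeing the data, these were 1546.5 genes per LOC, 48, 6 and 1573. Without cell_57 and cell_76, Calca was in 100% of LOCs and the genes in nearly all LOCs numbered 73, of which 6 were in at most 1 control; 28 other values stayed within the limits. With all 10 controls 3 such genes were left, and with no filter on controls 110, with 12 of the 20 variable genes kept. With values as deposited 0 of the 20 were kept. A difference of mean log2(TPM + 1) of at least 2 was found for 110 genes higher and 146 lower in LOCs. With all 56 labelled pLSOs, 38 genes had a higher and 41 a lower share in LOCs, within the limits. With all 30 labelled LOCs, 31 of 31 values stayed within the limits, the medians of the electrophysiological features included. No paired analysis was possible because no label ties neurons of different classes to each other and no test was made. Without read counts, an undetected transcript cannot be told from a failed capture.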
